A study of Mus musculus with 6 samples.

Results

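The transcripts described here are those of the adult globins and of other genes of the red cell lineage, measured in hearts taken whole from mice at postnatal day 7. Members were chosen by gene symbol in the GRCm38 annotation. Of 7 listed genes, 6 were found among 52550 mouse gene rows: the alpha-globin genes Hba-a1 and Hba-a2, the adult beta-globin genes Hbb-bs and Hbb-bt, Alas2 and Slc4a1. Ahsp, the gene of the alpha-haemoglobin stabilising protein, was not analysed here. The series compared 3 GR-cKO hearts, in which the glucocorticoid receptor gene Nr3c1 was deleted in cardiomyocytes, with 3 ctrl hearts of the same age. The labels name neither the Cre line, the deleted exon, the strain nor the alleles carried by ctrl animals, and they call the libraries biological replicates without saying whether each was 1 animal. P-values set a difference between the groups against the spread between these libraries.

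Red cells lose their nucleus before they finish maturing, and the youngest circulating cells, the reticulocytes, still carry messenger RNA inherited from their precursors. Globin messages make up most of that RNA, because haemoglobin is built from alpha and beta chains, each holding a haem group. A heart that is homogenised whole includes the blood left in its chambers and vessels, so globin reads in a heart library can come with that blood. The source of the reads was not tested here. Outside the heart, glucocorticoid receptors are known to act in erythroid progenitors during stress. Nr3c1 in those cells was not measured here.

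Libraries were made from the 3′ end of polyadenylated RNA, so a count follows the number of transcripts rather than their length, and levels of different genes can be set side by side without a length correction. A level is given in CPM, a gene's reads per 1000000 reads of all tested genes, scaled between libraries by the trimmed mean of M-values. Libraries held 18135540 to 22999192 reads. Nr3c1 was at 54.3 ± 4.47 CPM in GR-cKO hearts and 115 ± 15.8 CPM in ctrl hearts (SD, n = 3 each). Its log2 fold change of -1.08 passed the test (edgeR adjusted p = 0.00101). Reads of Xist and of Y-linked genes marked replicate 1 of each group as female and the other libraries as male. The 10 cardiomyocyte markers together were at 79170 to 96170 CPM in GR-cKO hearts and 73290 to 84940 CPM in ctrl hearts.

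The promoters of the globin genes and of Alas2 are shown because the globin transcripts varied together between libraries and Alas2 parted from them in ctrl replicates 1 and 2. Each window runs from 250 bases before to 50 bases after the RefSeq gene start (GRCm38.p6) and is written 5′ to 3′ on the strand of the gene. The windows are chr11:32283422-32283721 for Hba-a1 (plus strand), chr7:103827879-103828178 for Hbb-bs (minus strand), chr7:103813874-103814173 for Hbb-bt (minus strand) and chrX:150547167-150547466 for Alas2 (plus strand). Capitals mark, on either strand, 4 motifs: the GATA motif written as AGATAA or AGATAG or else as TGATAA or TGATAG, the CACCC box, the CCAAT box and the letters TATAA. GATA and CACCC motifs are letters that erythroid factors of the GATA and Krüppel-like families are known to bind.
Hba-a1: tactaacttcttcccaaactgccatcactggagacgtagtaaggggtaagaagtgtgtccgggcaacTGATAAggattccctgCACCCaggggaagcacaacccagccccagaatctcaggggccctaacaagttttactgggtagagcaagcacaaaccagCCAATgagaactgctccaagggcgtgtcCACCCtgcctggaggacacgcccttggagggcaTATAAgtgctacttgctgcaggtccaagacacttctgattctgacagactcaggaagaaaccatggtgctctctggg
Hbb-bs: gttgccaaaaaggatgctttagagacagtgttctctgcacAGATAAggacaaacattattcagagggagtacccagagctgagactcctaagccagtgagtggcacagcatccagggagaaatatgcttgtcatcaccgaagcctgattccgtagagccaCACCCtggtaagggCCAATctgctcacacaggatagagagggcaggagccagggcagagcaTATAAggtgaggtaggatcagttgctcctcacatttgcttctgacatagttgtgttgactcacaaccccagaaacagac
Hbb-bt: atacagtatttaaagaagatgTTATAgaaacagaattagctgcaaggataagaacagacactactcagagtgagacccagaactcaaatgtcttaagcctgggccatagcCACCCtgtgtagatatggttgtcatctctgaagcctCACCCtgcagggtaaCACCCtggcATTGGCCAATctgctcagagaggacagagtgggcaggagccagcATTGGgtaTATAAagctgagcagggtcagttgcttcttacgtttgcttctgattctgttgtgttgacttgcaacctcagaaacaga
Alas2: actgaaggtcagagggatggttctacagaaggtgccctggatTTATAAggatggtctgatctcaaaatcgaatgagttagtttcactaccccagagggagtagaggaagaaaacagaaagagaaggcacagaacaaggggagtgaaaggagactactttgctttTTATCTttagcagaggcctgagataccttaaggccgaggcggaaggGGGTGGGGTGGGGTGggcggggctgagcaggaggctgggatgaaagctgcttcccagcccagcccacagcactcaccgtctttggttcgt

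The window of Hba-a2 (chr11:32296242-32296541, plus strand) is the same sequence shifted by a few bases, with 297 of 297 aligned bases identical to that of Hba-a1. In the 4 globin windows a forward TATAA began 27 to 30 bases before the gene start, and a forward CCAAT began 75 to 91 bases before it. A GATA motif began 183, 186 and 210 bases before the start of Hba-a1, Hba-a2 and Hbb-bs, and Hbb-bt had none in these forms. Alas2 had a reverse GATA motif beginning 86 bases before its start, 3 reverse CACCC boxes and no CCAAT. These letters are common, since a GATA motif was found in 29.8%, CACCC in 57.5%, CCAAT in 37.4% and TATAA in 24.9% of 32851 promoter windows of this length. The full palindromic glucocorticoid response element was found in 0.00913% of all windows and in none of these 5. Its shorter single arm AGAACA was found in 19.0% of all windows and in 3 of these 5, those of Hbb-bs, Hbb-bt and Alas2. A match is a run of letters and does not show binding.

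None of the 6 genes differed between GR-cKO and ctrl hearts beyond the spread between libraries. In the edgeR quasi-likelihood test of 14860 genes, 0 of 6 passed an adjusted p of 0.05, where 0.00673% of all tested genes did, which is 1 gene, Nr3c1. At an unadjusted p under 0.05 the count was also 0 of 6, against 4.20% of all genes, and DESeq2 and limma voom likewise passed 0 of 6. The GR-cKO and ctrl libraries overlapped for all 6, while 9.97% of tested genes had groups that did not overlap (4.70% with GR-cKO above ctrl and 5.27% with GR-cKO below). The median log2 fold change of the 6 genes was -0.10, beside 0.0057 over all tested genes. As 4 of the 6 are globins that varied together, it is not a median of 6 separate measurements. In bulk tissue, the number of blood cells and the RNA per blood cell cannot be told apart.

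**Figure D1:**
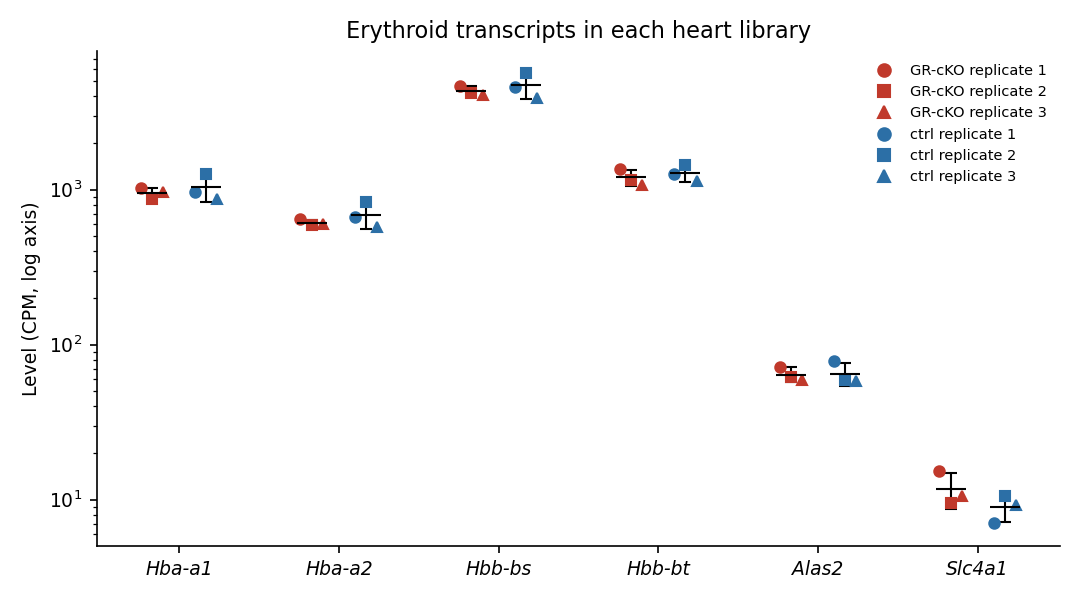
Level of each transcript in CPM (log axis) in every library, GR-cKO in red and ctrl in blue, with the group mean and SD as bars. Hbb-bs is the most abundant, at 3918 to 5627 CPM over the 6 libraries, Slc4a1 the least, at 7.04 to 15.3 CPM, and the groups overlap for each gene.

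The alpha chain is encoded by Hba-a1 (ENSMUSG00000069919, chromosome 11, 32283511 to 32284465, plus strand) and Hba-a2 (ENSMUSG00000069917, chromosome 11, 32296489 to 32297298, plus strand), in the same gene cluster. Hba-a1 was at 1019, 874 and 970 CPM in GR-cKO replicates 1, 2 and 3, against 971, 1256 and 868 CPM in ctrl replicates 1, 2 and 3. The single high library was ctrl replicate 2, and the other 5 lay close together. Its log2 fold change came to -0.11 (SE 0.129, 95% interval -0.38 to 0.16). Hba-a2 was at 642, 588 and 596 CPM in GR-cKO hearts, against 666, 826 and 572 CPM in ctrl hearts, again with ctrl replicate 2 highest and ctrl replicate 3 lowest. For Hba-a2 the log2 fold change came to -0.18 (SE 0.126, 95% interval -0.44 to 0.088), so that these data allow a level in GR-cKO hearts of 0.736 to 1.06 times that in ctrl hearts.

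The 2 alpha-globin counts cannot be read as separate measurements. Their longest coding transcripts aligned over 538 bases with 1 mismatch, and an identical stretch of 415 bases is longer than a typical short read. How the authors treated reads that fit both copies is not given in the sources used here. The deposited counts gave Hba-a2 38.7, 40.2 and 38.1% of alpha-globin reads in GR-cKO replicates 1, 2 and 3, against 40.7, 39.7 and 39.7% in ctrl replicates 1, 2 and 3.

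The adult beta chain is encoded by Hbb-bs (ENSMUSG00000052305, chromosome 7, 103826534 to 103828096, minus strand) and Hbb-bt (ENSMUSG00000073940, chromosome 7, 103812524 to 103813996, minus strand), the pair carried by C57BL/6 mice. Hbb-bs was the strongest erythroid transcript and ranked 20 of 14860 tested genes by mean CPM. It was at 4676, 4219 and 4085 CPM in GR-cKO replicates 1, 2 and 3, against 4560, 5627 and 3918 CPM in ctrl replicates 1, 2 and 3. Both the highest and the lowest library were ctrl hearts. Its log2 fold change came to -0.12 (SE 0.123, 95% interval -0.38 to 0.14), or 0.769 to 1.10 times the ctrl level.

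Hbb-bt was at 1359, 1157 and 1077 CPM in GR-cKO hearts, against 1257, 1449 and 1135 CPM in ctrl hearts. Here too ctrl replicate 2 was highest, and GR-cKO replicate 3 was lowest. Hbb-bt had a log2 fold change of -0.096 (SE 0.120, 95% interval -0.35 to 0.16). The transcripts of the 2 beta genes were less alike than those of the alpha genes, with 37 mismatches over 609 aligned bases. The last 300 bases, where 3′ reads fall, held 29 mismatches and also an identical stretch of 140 bases, the end of a run of 430 in the whole transcripts. Leaving out ctrl replicate 2 turned the log2 fold changes of Hba-a1, Hbb-bs and Hbb-bt to 0.054, 0.030 and 0.0031, so their sign rested on that heart.

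Alas2 (ENSMUSG00000025270, chromosome X, 150547375 to 150570638, plus strand) encodes the erythroid form of the enzyme that opens haem synthesis. It was at 72.1, 61.5 and 58.6 CPM in GR-cKO replicates 1, 2 and 3, against 77.8, 58.7 and 58.2 CPM in ctrl replicates 1, 2 and 3. The female library was the highest in each group, and the 4 male libraries lay within 58.2 to 61.5 CPM. Alas2 had a log2 fold change of -0.020 (SE 0.136, 95% interval -0.30 to 0.27), and it was -0.011 with library sex as a term and 0.037 with spike-in scaling. Alas2 overlaps Apex2 on the opposite strand, which was at 2.62 to 4.81 CPM over the 6 libraries.

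Slc4a1 (ENSMUSG00000006574, chromosome 11, 102348824 to 102366203, minus strand) encodes band 3, the chloride and bicarbonate exchanger of the red cell membrane. It had 274, 201 and 196 reads in GR-cKO hearts, against 161, 205 and 175 reads in ctrl hearts. These correspond to 15.3, 9.48 and 10.5 CPM in GR-cKO replicates 1, 2 and 3, against 7.04, 10.5 and 9.18 CPM in ctrl replicates 1, 2 and 3. The highest and the lowest value were those of the female libraries, GR-cKO replicate 1 and ctrl replicate 1, while the male libraries of the groups overlapped. Slc4a1 was the single member with a positive log2 fold change, 0.40 (SE 0.237, 95% interval -0.097 to 0.90, edgeR adjusted p = 0.998). The value was 0.17 without GR-cKO replicate 1 and 0.25 without ctrl replicate 1.

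The 4 adult globins together were used to describe blood content by library. Their share is one of globin transcripts, and neither total red cell RNA nor the volume of blood was measured. They took 0.773, 0.722 and 0.608% of mouse gene reads in GR-cKO replicates 1, 2 and 3, against 0.755, 0.929 and 0.656% in ctrl replicates 1, 2 and 3. The highest share was 1.53 times the lowest, and the GR-cKO and ctrl ranges overlapped. Against spike-in RNA, globin reads numbered 0.444, 0.436 and 0.307 per spike-in read in GR-cKO hearts and 0.402, 0.454 and 0.377 in ctrl hearts. On that scale ctrl replicate 2 no longer stood apart, and GR-cKO replicate 3 was lowest. Gm42418, a gene at a ribosomal RNA locus, made up 10.7% of all reads in GR-cKO replicate 3 and 5.38 to 7.54% elsewhere, and its part in the low globin share was not tested.

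**Figure D2:**
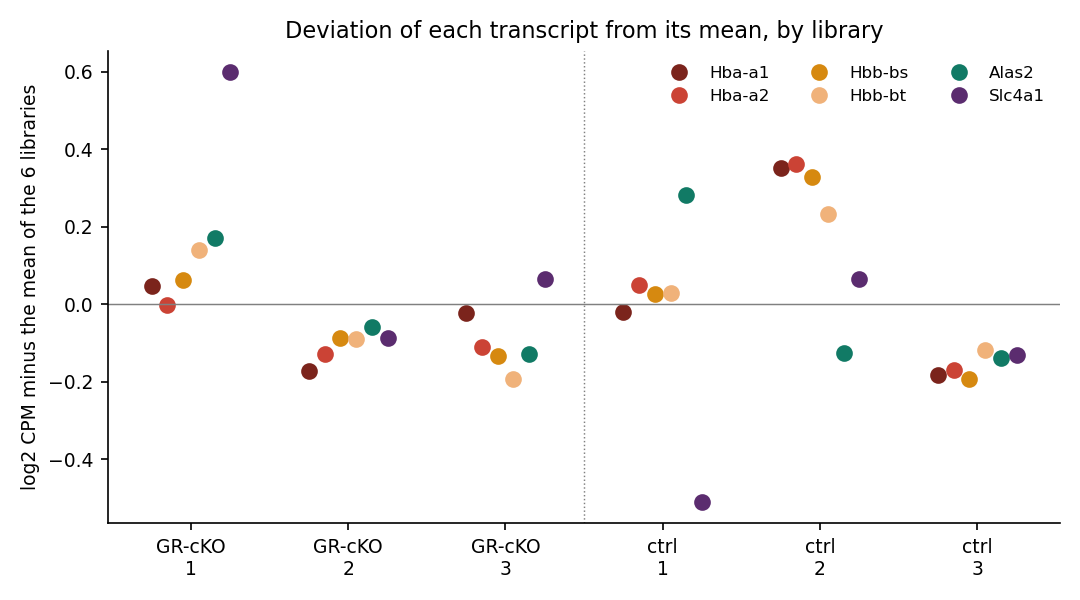
Deviation of each transcript from its own mean over the 6 libraries (log2 CPM), by library, with GR-cKO left and ctrl right of the dotted line. The 4 globins lie together and are highest in ctrl replicate 2, at 0.23 to 0.36 above their means, whereas Alas2 is highest in ctrl replicate 1 and Slc4a1 in GR-cKO replicate 1.

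The 4 globins moved as a group across hearts. The part of reads shared between near-identical copies in this was not tested. Over the 6 libraries Alas2 and Slc4a1 followed the globins weakly, with Pearson's r of 0.129 and 0.221 with their mean. Alas2 parted from them mainly in ctrl replicates 1 and 2. In GR-cKO replicates 2 and 3 and ctrl replicate 3 it deviated by -0.0589, -0.128 and -0.138, and the globins were also below their means. In ctrl replicate 2 the globins lay 0.23 to 0.36 above their 6-library mean on the log2 scale, while Alas2 deviated by -0.13. In ctrl replicate 1 Alas2 was 0.28 above and Slc4a1 deviated by -0.51, while the globins lay between -0.0205 and 0.0506. In ctrl replicate 3 all 6 transcripts were below their means. The SD of log2 CPM over the 6 libraries was 0.165 to 0.195 for the globins, 0.180 for Alas2 and 0.361 for Slc4a1. For comparison, the median SD was 0.135 over the 248 tested genes with a mean above 500 CPM and 0.249 over all tested genes.

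In ctrl replicate 2, the heart richest in globin reads, the cardiomyocyte markers summed to 73290 CPM, the lowest of the 6 libraries, through Myl3, which encodes a myosin light chain. Without Myl3 the sum was lowest in GR-cKO replicate 2, at 48010 CPM, against 49240 CPM in ctrl replicate 2, and 4 of the 10 markers were lowest in ctrl replicate 2. Ucp1, a gene of brown fat that was picked after its values were seen, was at 0, 18.8 and 3.93 CPM in GR-cKO replicates 1, 2 and 3, and at 6.78, 89.3 and 0.420 CPM in ctrl replicates 1, 2 and 3. The part of these differences in the globin level was not tested.

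Ratios within a library do not depend on how libraries are scaled, and they lay close together for the globins. Alpha-globin reads per beta-globin read were 0.275, 0.272 and 0.303 in GR-cKO hearts, against 0.282, 0.294 and 0.285 in ctrl hearts. The means were 0.284 ± 0.0173 in GR-cKO and 0.287 ± 0.00662 in ctrl hearts (SD, n = 3 each, 2-sided exact permutation p = 0.7). A ratio well under 1 is one of counts: reads shared by the near-identical alpha copies may be missing from it. Hbb-bt took 22.5, 21.5 and 20.9% of adult beta-globin reads in GR-cKO hearts, against 21.6, 20.5 and 22.5% in ctrl hearts (exact permutation p = 0.9).

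The level of Alas2 relative to globin transcripts was followed within each library. Both belong to the red cell lineage, so the ratio is one of transcripts and does not measure reticulocyte content. There were 9.37, 8.99 and 8.71 Alas2 reads per 1000 globin reads in GR-cKO replicates 1, 2 and 3, against 10.4, 6.41 and 8.97 in ctrl replicates 1, 2 and 3. The low value was that of ctrl replicate 2, and the ctrl libraries spread more widely than the GR-cKO libraries, which all lay inside the ctrl range. The means were 9.03 ± 0.328 in GR-cKO and 8.60 ± 2.04 in ctrl hearts (SD, n = 3 each, exact permutation p = 0.8). With 3 libraries against 3 the smallest exact p is 0.1, and adjusted over the 3 ratios tested each p was 0.9. Slc4a1 reads per 1000 globin reads, given as values alone, were 1.99, 1.39 and 1.57 in GR-cKO hearts and 0.944, 1.15 and 1.41 in ctrl hearts.

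**Figure D3:**
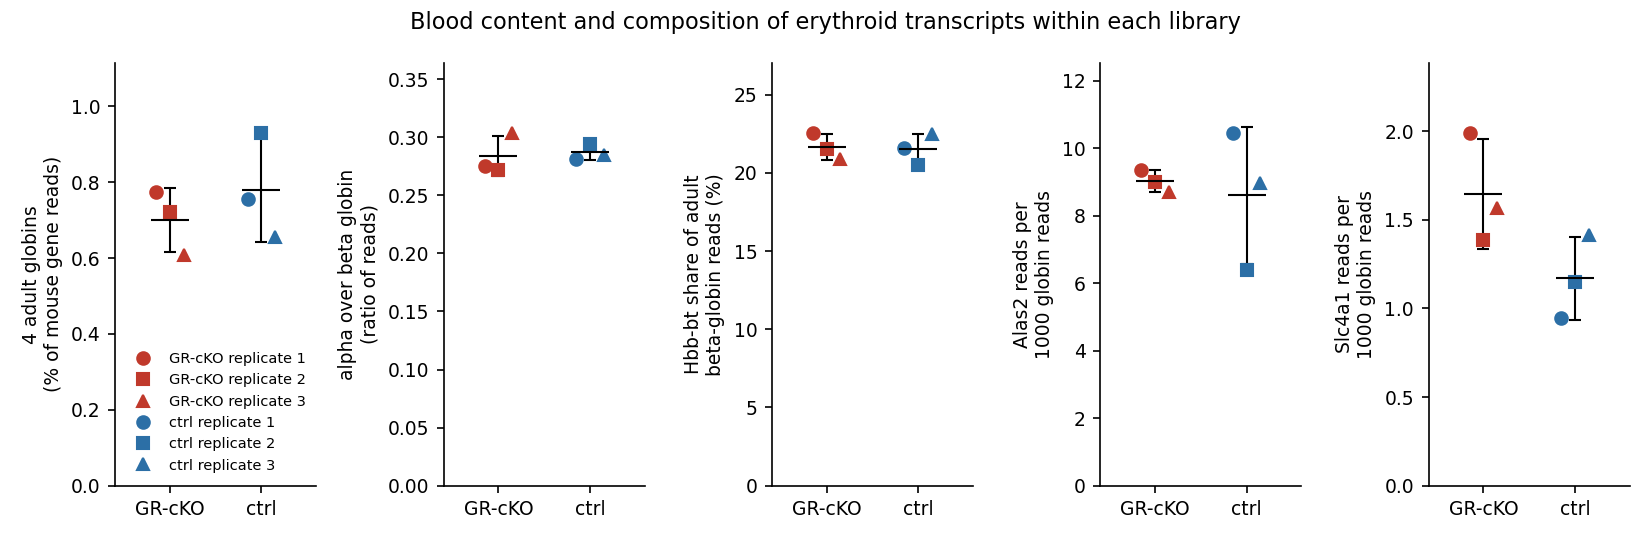
Share of mouse gene reads taken by the 4 adult globins, and ratios between erythroid transcripts, in each library, GR-cKO left and ctrl right, with the mean and SD as bars and axes from 0. The globin share spans 0.608 to 0.773% in GR-cKO and 0.656 to 0.929% in ctrl hearts, and the alpha to beta ratio stays within 0.272 to 0.303.

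Embryonic globins were at or near 0 at this age. Hbb-bh1, an embryonic beta-like chain, and its neighbour Hbb-bh2 had no read in any library, which allows at most 0.168 CPM per library by a floor of 3 counts (counting error only). Hbb-bh0 and Hbb-bh3, annotated as pseudogenes, also had none. Hba-x, the embryonic zeta chain, had 1 read in all. Hbb-y, the embryonic epsilon-type chain, had 5, 0 and 0 reads in GR-cKO hearts and 7, 10 and 2 reads in ctrl hearts. The theta-type gene Hbq1a had 15, 14 and 4 reads in GR-cKO hearts and 14, 19 and 15 reads in ctrl hearts (log2 fold change -0.46, 95% interval -1.99 to 1.07). Its neighbour Hbq1b had 3, 0 and 9 reads in GR-cKO hearts and 0, 9 and 0 reads in ctrl hearts.

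The globins of other cell types were far from the red cell pattern. Mb, the myoglobin gene of heart and skeletal muscle, was at 10750, 9286 and 13400 CPM in GR-cKO hearts, against 10030, 8373 and 10250 CPM in ctrl hearts. It was lowest in ctrl replicate 2, where the red cell globins were highest, so that Mb reads numbered 0.914 per adult globin read there and 1.35 to 1.99 in the other 5 libraries. The log2 fold change of Mb was 0.22 (SE 0.127, 95% interval -0.045 to 0.49, edgeR adjusted p = 0.998). Cygb, cytoglobin of fibroblast-like cells, was at 205, 176 and 202 CPM in GR-cKO hearts and 192, 157 and 199.7 CPM in ctrl hearts, and Ngb, neuroglobin, had 9 reads or fewer per library.

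Transcripts of nucleated red cell precursors were at the limit of detection. Gata1, the master factor of red cell differentiation, had 0, 0 and 0 reads in GR-cKO hearts and 0, 0 and 3 reads in ctrl hearts. Klf1, the activator of adult beta-globin, had 0, 0 and 2 reads in GR-cKO hearts and 0, 2 and 0 reads in ctrl hearts, and Gfi1b had none in any library.

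The wider lists gave no call, with 0 genes passing the edgeR adjusted threshold in each. At an unadjusted p under 0.05 there were 2 of 15 tested genes of haem synthesis, 1 of 7 of erythroid progenitors, 1 of 9 of platelets and 2 of 5 of neutrophils, where 4.20% of all tested genes reached it, and 0 in the membrane, reticulocyte, transcription factor, haem and iron handling and lymphocyte lists. Of 16 haem synthesis genes 15 were tested, 6 with a positive and 9 with a negative log2 fold change, and a median of -0.031. Alas1, the housekeeping counterpart of Alas2, was at 99.4, 102 and 82.8 CPM in GR-cKO hearts, against 109, 129.8 and 98.3 CPM in ctrl hearts, and the groups overlapped. Alad, which acts next in the pathway, was at 30.2, 29.8 and 41.04 CPM in GR-cKO hearts, against 29.4, 25.7 and 23.97 CPM in ctrl hearts. Uros, a later enzyme, was at 4.02, 5.33 and 4.68 CPM in GR-cKO hearts, against 7.17, 7.24 and 6.24 CPM in ctrl hearts. Alad (unadjusted p = 0.0387) and Uros (unadjusted p = 0.04505) were the 2 genes of this list with an unadjusted edgeR p under 0.05, and both had an adjusted p of 0.998. Their groups did not overlap, in opposite directions, and Uros overlaps Bccip on the other strand. Tmem14c, which serves haem synthesis in mitochondria, was at 271 to 353 CPM in GR-cKO hearts and 287 to 320 CPM in ctrl hearts. Glrx5, a protein of iron-sulfur cluster assembly, was at 119.8 to 159 CPM in GR-cKO hearts and 120.9 to 130.5 CPM in ctrl hearts.

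Of 19 red cell membrane genes 14 were tested, 10 with a positive and 4 with a negative log2 fold change, with a median of 0.067. The most abundant were Tmod1 (319 to 359 CPM in GR-cKO hearts, 330.1 to 349 in ctrl hearts), Aqp1 and Ank1, which heart muscle or vessels are also known to express. They therefore say little about blood. Aqp1, the water channel of red cells and of endothelium, was at 248, 195 and 464 CPM in GR-cKO hearts, against 280.3, 322 and 269.8 CPM in ctrl hearts. The high value belongs to GR-cKO replicate 3. Icam4, a red cell adhesion protein, had 22, 26 and 10 reads in GR-cKO hearts and 7, 6 and 11 in ctrl hearts (log2 fold change 1.32, SE 0.729, adjusted p = 0.998), and Dmtn, dematin, had 24, 20 and 18 reads in GR-cKO hearts and 28, 30 and 36 in ctrl hearts.

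Of 22 genes kept late in erythroblasts and reticulocytes 19 were tested, 9 with a positive and 10 with a negative log2 fold change, with a median of -0.047. Those not tested were Car1, Trim58 and Hemgn, with 0, 1 and 12 reads over all libraries. The most abundant, Slc25a39 and Tfrc, had means of 143.9 and 108.5 CPM, above the 64.5 CPM of Alas2. Whether their reads came from red cells was not tested, so the median is not one of reticulocytes alone. Slc25a39, a mitochondrial carrier, had a log2 fold change of 0.083, and Tfrc, the transferrin receptor that brings iron into erythroblasts, of -0.10. Bpgm, which makes the phosphoglycerate that loosens oxygen from haemoglobin, was at 65.05, 60.1 and 48.3 CPM in GR-cKO hearts, against 73.9, 67.8 and 53.1 CPM in ctrl hearts. Car2, a carbonic anhydrase of red cells, was at 6.25, 5.61 and 5.65 CPM in GR-cKO hearts, against 2.41, 5.50 and 5.19 CPM in ctrl hearts, where ctrl replicate 1 was low as it was for Slc4a1. Isg20 had a log2 fold change of -0.82 (SE 0.589). Over the 12 erythroid transcription factor genes, 9 were tested, with a median of 0.073. The best read of them, Ldb1, Zfpm1 and Bcl11a, are not confined to red cells and had log2 fold changes of 0.075, -0.028 and 0.073. Lyl1 and E2f4 had values of 0.25 and 0.34, and Lyl1 overlaps the strongly read Nfix on the other strand.

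All 7 genes on the list of erythroid progenitors were tested, and 5 had a negative log2 fold change, with a median of -0.31. Csf2rb, a receptor chain of myeloid cytokines, was at 1.95, 2.83 and 1.08 CPM in GR-cKO hearts, against 4.15, 3.70 and 3.57 CPM in ctrl hearts, and the groups did not overlap. Csf2rb had a log2 fold change of -0.96 (SE 0.392, unadjusted p = 0.0253, edgeR adjusted p = 0.998). Kit, the receptor of stem cell factor, was at 13.6, 8.16 and 8.39 CPM in GR-cKO hearts, against 8.40, 13.3 and 15.6 CPM in ctrl hearts. Cd34 and Tgfbr3, which endothelium and stroma also express, had log2 fold changes of 0.091 and -0.16, and Gata2 of -0.35.

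**Figure D4:**
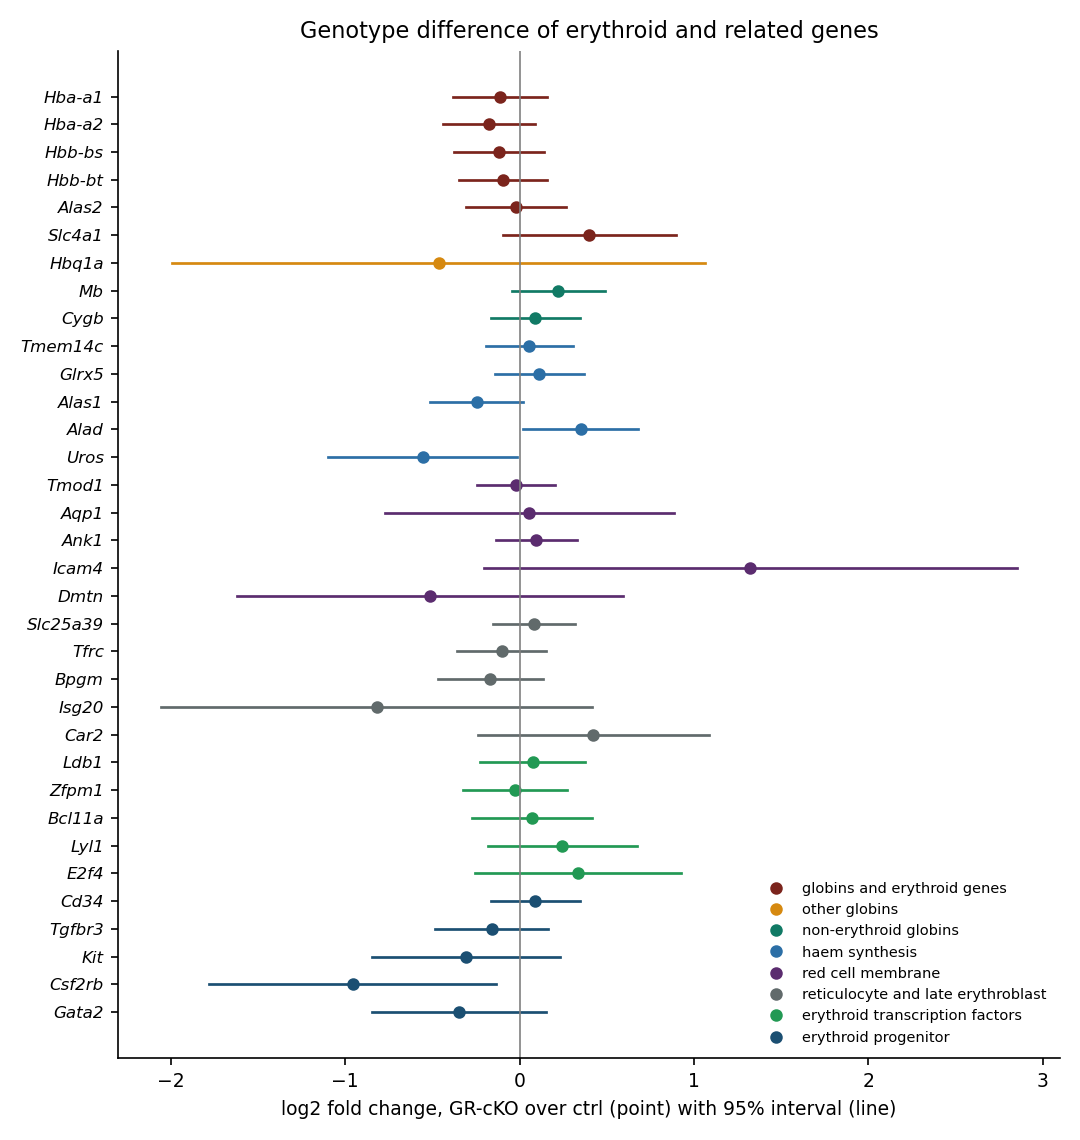
Log2 fold change of GR-cKO over ctrl (points) with its 95% interval (lines) for the 6 globin and erythroid genes and for named tested genes of related lists, by colour. The intervals of the 6 genes at the top all include 0, and the widest intervals belong to genes of few reads such as Icam4, Isg20 and Hbq1a.

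Genes that handle haem and iron in tissue gave no call among 17 tested of 19, with 11 positive and 6 negative log2 fold changes and a median of 0.087. Fth1, the heavy chain of ferritin, was at 1792, 1828 and 1885 CPM in GR-cKO hearts, against 2027, 1921 and 1952 CPM in ctrl hearts. The groups did not overlap, but the log2 fold change was -0.10 (95% interval -0.31 to 0.11). Ftl1, the light chain, has many near-identical copies and was at 13.6, 18.7 and 13.1 CPM in GR-cKO hearts, against 17.7, 18.4 and 18.2 CPM in ctrl hearts. Cd163, the macrophage receptor that clears free haemoglobin, was at 1.12, 1.13 and 2.85 CPM in GR-cKO hearts, against 0.656, 1.44 and 0.577 CPM in ctrl hearts. Slc48a1, a haem transporter of lysosomes, and Lrp1, a receptor for haem bound to hemopexin, had log2 fold changes of 0.12 and 0.0083.

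Markers of other circulating cells were read at much lower levels. The 14 platelet markers summed to 68.4, 64.0 and 52.4 CPM in GR-cKO hearts, against 58.9, 94.7 and 80.97 CPM in ctrl hearts, and 9 were tested with 8 negative log2 fold changes. The sum was highest in ctrl replicate 2 through Pf4, and without Pf4 it was highest in ctrl replicate 3, at 39.9 CPM, against 36.1 CPM in ctrl replicate 2. Pf4, platelet factor 4, which some tissue macrophages also express, was at 41.9, 36.0 and 30.2 CPM in GR-cKO hearts, against 34.5, 58.6 and 41.1 CPM in ctrl hearts, and Ppbp, another platelet chemokine, had a log2 fold change of -1.72 (unadjusted p = 0.0168, edgeR adjusted p = 0.998). The 12 neutrophil markers summed to 29.2, 21.4 and 21.1 CPM in GR-cKO hearts, against 14.7, 15.8 and 13.4 CPM in ctrl hearts, and these groups did not overlap, whereas the erythroid sums did. Without S100a8, the most abundant of them, the neutrophil sums were 16.3, 8.58 and 9.04 CPM in GR-cKO hearts, against 6.08, 8.17 and 6.40 CPM in ctrl hearts. Over all tested genes, the GR-cKO libraries lay above the ctrl libraries for 4.70%. The 12 lymphocyte markers summed to 11.6, 12.9 and 10.2 CPM in GR-cKO hearts and 10.8, 13.4 and 12.2 CPM in ctrl hearts.

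**Figure D5:**
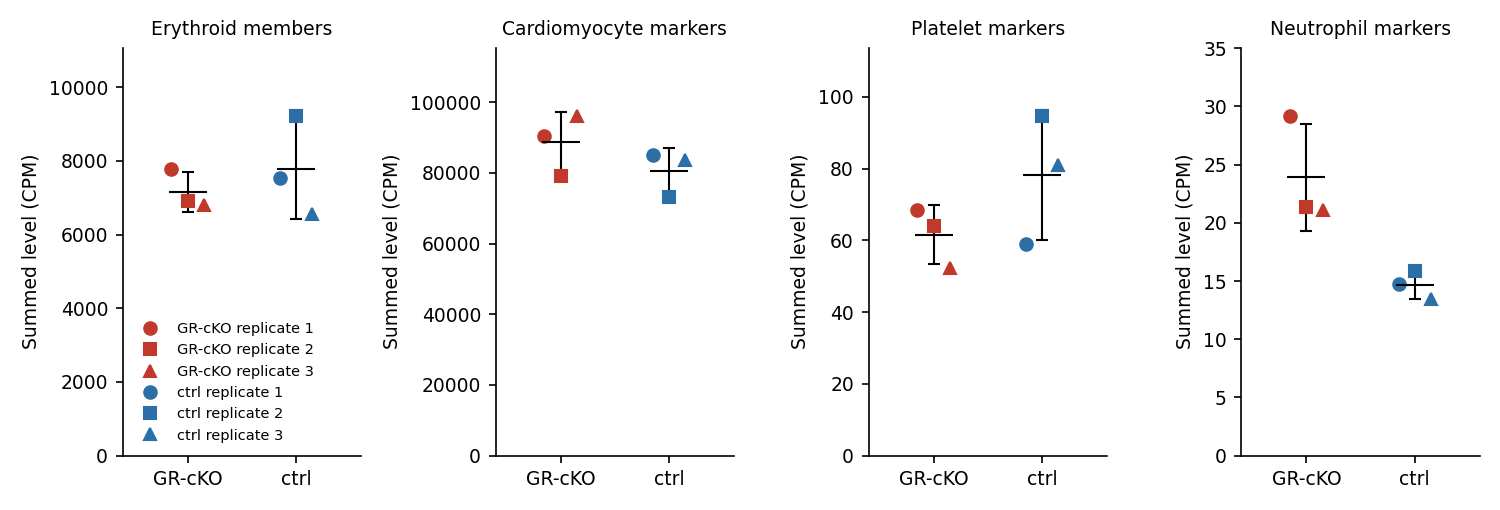
Summed CPM of the 6 erythroid genes and of marker lists of cardiomyocytes, platelets and neutrophils in each library, GR-cKO left and ctrl right, with the mean and SD as bars and axes from 0. The erythroid sum is highest in ctrl replicate 2, at 9228 CPM, where the cardiomyocyte sum is lowest, at 73290 CPM, although without Myl3 that sum is lowest in GR-cKO replicate 2.

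The genes most like the erythroid profile over the 6 libraries were found by Pearson's r between log2 CPM and the mean deviation of the 6 members, among 13402 genes with a mean of at least 1 CPM. The 10 nearest had r of 0.966 to 0.992, and 52 genes reached 0.9. They were 6720475M21Rik, Trip12, Uqcc2, Gm12996, Tlr2, Rad54b, Abi2, Cndp2, Exoc4 and Osbpl9. None of them stands on the erythroid lists. Of these, 6720475M21Rik, Gm12996, Tlr2 and Rad54b had means of 1.10 to 1.47 CPM, just above the bound of 1 CPM. The r of single members with this profile, of which each is a part, was 0.933 for Hbb-bt, 0.903 for Hbb-bs and 0.875 for Hba-a1. It was 0.823 for Hba-a2, 0.556 for Slc4a1 and 0.260 for Alas2. The 10 genes were picked for the highest r, so no comparison with the members is drawn. With 6 libraries and so many genes, a high r describes these libraries alone.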

How the data were processed

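RNA of 6 whole hearts at postnatal day 7 was made into 3′ libraries, per the labels' protocols. The authors deposited raw counts per gene, without normalization, for each library. The submitters' processing notes name STAR 2.5.4a, featureCounts 1.6.2 and GRCm38. For the strand setting and for reads that fit several genes, the sources used here state nothing. The 99 spike-in rows were kept out of library sizes. Genes were filtered with filterByExpr, which left 14860, scaled by TMM and tested with edgeR 4.0.16 (robust quasi-likelihood, Benjamini-Hochberg adjustment over all tested genes, threshold 0.05), a procedure tested on simulated data. Patterns used log2 CPM with a prior count of 2. Alternatives included DESeq2 1.42.0 and limma 3.58.1. Ratios between transcripts were compared with exact permutation tests.

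Gene symbols and positions came from GENCODE M21. The members and lists were chosen with earlier results of these data known. The rule for naming genes took the members and other globins with 10 or more reads in all. From each list it took up to 3 genes of highest mean CPM and up to 2 of smallest p. For cardiomyocytes, platelets, neutrophils, lymphocytes and endothelium, not every gene so picked is given singly. Gata1, Klf1, Gfi1b, Car1, Trim58, Hemgn and the embryonic globins without reads were added outside that rule, with their values known.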

Additional observations from a re-analysis of the deposited data

How the results depend on the processing

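The 6 genes were refitted under 15 alternatives each, and 0 of these 90 values passed the threshold (smallest adjusted p = 0.848). The sign changed in 7. Leaving out 1 library at a time gave log2 fold changes of -0.22 to 0.054 for Hba-a1, -0.29 to -0.024 for Hba-a2, -0.24 to 0.030 for Hbb-bs, -0.19 to 0.0031 for Hbb-bt, -0.11 to 0.13 for Alas2 and 0.17 to 0.54 for Slc4a1. Alas2 was at 0.037 with spike-in scaling. That scaling moved the median of all genes to 0.055. The cause of these changes was not tested. The GR-cKO minus ctrl difference in the Hbb-bt share was 0.123 percentage points, -0.0837 between medians and -0.394 to 0.595 with 1 library left out. The alpha to beta difference was -0.0133 to 0.00236, and that in Alas2 reads per 1000 globin reads -0.679 to 1.34, with 1 library left out. Over all genes, 4 were called higher and 6 lower without the filter on low counts, 2 lower with library totals alone, 3 lower with DESeq2, and 1 to 2 lower with 1 library left out. With the replicate number as a block, 1 gene was called lower and 0 higher, and Slc4a1 was at 0.39. Deviations of same-numbered libraries correlated at 0.062, 0.0562 and 0.0144. GR-cKO replicates 1 and 2 correlated best with the ctrl library of their own number, and GR-cKO replicate 3 with ctrl replicate 2. Same-numbered libraries were not treated as pairs, since the labels do not say that equal numbers mark a litter or day. Slc4a1 rests on 161 to 274 reads per library and varied by 26.5% (CV over the 6 libraries), the globins on 10906 or more reads and 11.6 to 14.5%. The sums of marker lists without their most abundant gene were an alternative chosen after seeing the data.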

Other observations

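Endothelial markers, which mark the vessels that hold the blood, summed to 2206, 1995 and 2160 CPM in GR-cKO replicates 1, 2 and 3, against 2141, 1810 and 2119 CPM in ctrl replicates 1, 2 and 3. The lowest sum was that of ctrl replicate 2, where globin levels were highest and 5 of the 10 markers were at their lowest. All 10 were tested, with 4 positive and 6 negative log2 fold changes, a median of -0.039 and none passing the edgeR adjusted threshold (2 of 10 had an unadjusted p under 0.05, against 4.20% of all tested genes).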
